A study of Mus musculus with 6 samples.

Results

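Polycomb repressive complex 2 (PRC2) was described through the transcripts of its core and accessory subunits in mouse embryonic stem cells (ES cells) with and without the RNA helicase Ddx5, also known as p68. The members were given by name: the core subunits Ezh1, Ezh2, Eed and Suz12, the subunits Mtf2, Phf1, Phf19 and Epop of the PRC2.1 form, and the subunits Jarid2 and Aebp2 of the PRC2.2 form. Of these 10 genes, 9 were matched among the 10989 genes of the table. Phf19 was not analysed here. Epop is listed in the table under its older name, E130012A19Rik.

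The study compared DDX5-/- lines (KO) with DDX5+/+ cells (WT), both of the MPI-II ES cell line at passages 13 to 18. There were 4 KO libraries, numbered as lines, and 2 WT libraries, numbered as replicates, while the design text speaks of triplicates. Each KO line is 1 clone, made with paired guide RNAs against Ddx5, Cas9 nickase and G418 selection. Both genotypes were kept on feeder cells in medium with 15% serum, 1000 U/ml leukemia inhibitory factor, 1 μM of the MEK inhibitor PD0325901 and 3 μM of the GSK3 inhibitor CH99021. Whether the WT libraries came from separate cultures is not stated, so p-values measure the spread between these 6 libraries, which may be technical. The series title names Polycomb complexes, and the comparison of KO with WT asks here which PRC2 transcripts differed when Ddx5 was disrupted.

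PRC2 places methyl groups on lysine 27 of histone H3, a mark that keeps developmental genes silent. Ezh2, or its paralog Ezh1, holds the catalytic site, which works only when bound to Eed, the reader of the methyl mark, and Suz12, the scaffold. Accessory subunits bind Suz12 in mutually exclusive sets: the Polycomb-like proteins Mtf2, Phf1 and Phf19, with or without Epop, define PRC2.1, and Jarid2 with Aebp2 defines PRC2.2. In ES cells PRC2 is dispensable for self-renewal but is needed for orderly differentiation.

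Levels are normalized scores in deposited units, and read depth is unknown. Ddx5 itself had 5854, 8450, 12793 and 5659 units in KO lines 1 to 4, against 36433 and 36436 units in WT replicates 1 and 2 (log2 fold change -2.23, SE 0.317, limma adjusted p = 0.00807). All KO lines lay below both WT libraries, and transcript remained in each line. All 16 ES cell markers examined were detected in every library, with summed levels of 138612 to 146255 units in KO and 115773 to 185710 units in WT. Of all 10989 genes, only 155 were at 0 in any library, so detection by itself says little. Dppa5a alone had 78894 and 17548 units in WT replicates 1 and 2, against 36418 units in every KO line. WT replicate 2 had the most genes at 0, 131 of them, and the others had 13 to 19. Genes of chromosome 6, which carries Ezh2 and Aebp2, stood higher in KO line 4 than in any other library. Chromosome 8, which carries no member, also set libraries apart: its 603 genes had a median log2 deviation of -0.34 in KO line 1 and of 0.15 to 0.20 in the other KO lines, and of -0.34 in WT replicate 1 and 0.12 in WT replicate 2.

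The guide targets define the KO lines and are shown first, as given by the study's oligonucleotides without the cloning overhang, 5′ to 3′, with the adjoining PAM read from the GENCODE M21 transcript of Ddx5 in capitals. Both targets lay on the coding strand.
Ddx5 guide 1: gagaccgcggccgggatcgaGGG
Ddx5 guide 2: ggaaagaagtttggaaatccTGG
In that annotation (mm10, minus strand), guide 1 matched chr11:106788275-106788294 in exon 1 and guide 2 matched chr11:106787009-106787028 in exon 2. The labels place the paired targets in the second exon.

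The promoters of 3 core genes are shown because Eed fell in the KO lines while Ezh2 and Suz12, its partners in the complex, did not pass the test. Each line gives the 100 bases before the RefSeq start site (GRCm38.p6), 5′ to 3′ on the strand of the gene, with CCAAT or its reverse complement in capitals.
Eed: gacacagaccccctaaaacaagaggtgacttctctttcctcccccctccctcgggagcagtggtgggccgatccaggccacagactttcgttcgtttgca
Ezh2: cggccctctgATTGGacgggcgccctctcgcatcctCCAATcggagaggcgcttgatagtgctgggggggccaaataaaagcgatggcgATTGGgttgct
Suz12: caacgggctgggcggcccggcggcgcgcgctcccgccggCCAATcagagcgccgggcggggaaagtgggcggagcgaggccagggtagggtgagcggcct
These windows are chr7:89980977-89981076 on the minus strand for Eed, chr6:47595031-47595130 on the minus strand for Ezh2 and chr11:79993006-79993105 on the plus strand for Suz12. The annotations differ in their starts: in GENCODE M21 the Ezh2 gene begins farther upstream, at position 47595341, so that all 100 bases of its window lie inside the annotated gene, as do 7 bases for Eed and 0 for Suz12. CCAAT, read on both strands, was found 3 times for Ezh2, 1 time for Suz12 and 0 times for Eed, and in 18.9% of 32851 RefSeq promoter windows of this length. The GC box GGGCGG was found 3 times for Suz12 and 0 times for Eed and Ezh2, and in 24.7% of windows. The ETS motif CCGGAAG was found in none of the 3, and in 4.52% of windows. The window of Ezh1, the other core gene, which did not pass either, is not shown and held 0 matches of each motif, as for Eed. Among accessory subunits, CCAAT was found in a window of Mtf2 and in none of Jarid2, Aebp2 and Phf1. A match describes the letters only. Of the 10 members, 9 were matched in the promoter table, without Epop.

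PRC2 transcripts did not move as one. Of the 9 measured members, 2 were lower in the KO lines at an adjusted p below 0.05 (Epop and Eed), 0 were higher, and 7 did not pass. That is 22.2% of members called, beside 17.1% of all 10989 genes. In the lower direction the background was 7.34% and in the higher direction 9.75%. In 5 members the KO and WT values did not overlap, a share of 55.6% beside 43.7% of all genes. All KO lines were above the WT libraries in 3 members, where the background is 24.1%, and below them in 2, where it is 19.6%. With 9 genes, the shares called in either direction and without overlap are near the background. The calls by direction, 2 lower and 0 higher, depart further from it but rest on too few genes to be read. The median log2 fold change of the members was 0.36, beside 0.04 over all genes. Among the members that did not pass, the limma adjusted p was lowest for Mtf2 (0.0545), Jarid2 (0.0619) and Ezh1 (0.0661). Fibroblast markers, which the feeder cells express, were lower in the KO lines for 20 of 22 genes, and their part in the PRC2 values was not tested.

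**Figure D1:**
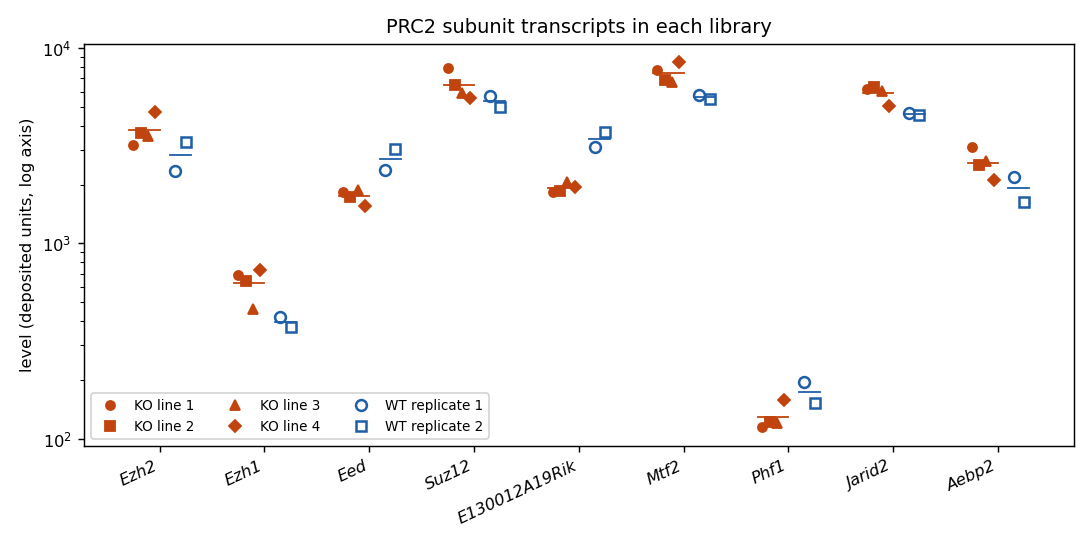
Level of each measured PRC2 subunit in each library, in deposited units on a log axis, for 4 KO lines (filled) and 2 WT replicates (open); short lines mark group means. Eed and E130012A19Rik (Epop) lie lower in all 4 KO lines than in both WT libraries, and Ezh1, Mtf2 and Jarid2 lie higher in all 4.

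Among the core subunits, Eed fell in the KO lines. Eed (ENSMUSG00000030619, chr7:89954654-89980983, minus strand, mm10) had 1827, 1724, 1882 and 1548 units in KO lines 1 to 4, against 2375 and 3046 units in WT replicates 1 and 2. The groups did not overlap, and the KO lines lay closer together than the WT pair. The mean was 1745 ± 147 units in KO (SD, n = 4) and 2711 ± 474 units in WT (SD, n = 2), a ratio of 0.644. The log2 fold change was -0.62 (SE 0.133, limma adjusted p = 0.0239). In GENCODE M21, 261 of the 3828 exon bases of Eed overlap E230029C05Rik on the opposite strand, and since strand-specific counting is not stated, reads of the pair may not have been told apart. The test turned on single libraries. The call was lost without KO line 2 (log2 -0.62, limma adjusted p = 0.0773), without KO line 3 (log2 -0.66, adjusted p = 0.0606) and without WT replicate 2 (log2 -0.45, adjusted p = 0.0807), and it held without each of the other 3.

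Suz12, the scaffold to which the accessory subunits bind, did not pass. Suz12 (ENSMUSG00000017548, chr11:79993106-80034123, plus strand) had 7930, 6466, 5872 and 5582 units in KO lines 1 to 4, against 5680 and 5012 units in WT replicates 1 and 2. KO line 4 lay below WT replicate 1, so the groups overlapped, and KO line 1 was the highest library. Its log2 fold change was 0.26 (SE 0.149, limma adjusted p = 0.251).

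Ezh2, the main methyltransferase of proliferating cells, did not pass either. Ezh2 (ENSMUSG00000029687, chr6:47530139-47595341, minus strand) had 3210, 3666, 3568 and 4740 units in KO lines 1 to 4, against 2359 and 3318 units in WT replicates 1 and 2. WT replicate 2 lay above KO line 1, and the SD was 659 units among the KO lines (n = 4) and 678 units in the WT pair (n = 2). On the log2 scale the difference was 0.42 (SE 0.19, limma adjusted p = 0.158). It ranged from 0.18 without WT replicate 1 to 0.67 without WT replicate 2, and passed in neither.

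Ezh1, the paralog with weaker catalytic activity that predominates in non-dividing cells, had the largest positive log2 fold change of the members. Ezh1 (ENSMUSG00000006920, chr11:101191115-101226463, minus strand) had 690, 641, 459 and 729 units in KO lines 1 to 4, against 422 and 372 units in WT replicates 1 and 2. All KO lines lay above both WT libraries, and KO line 3 was close to them. On the log2 scale the difference was 0.63 (SE 0.195, limma adjusted p = 0.0661). Without KO line 3 it was 0.77 and passed (limma adjusted p = 0.0383).

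**Figure D2:**
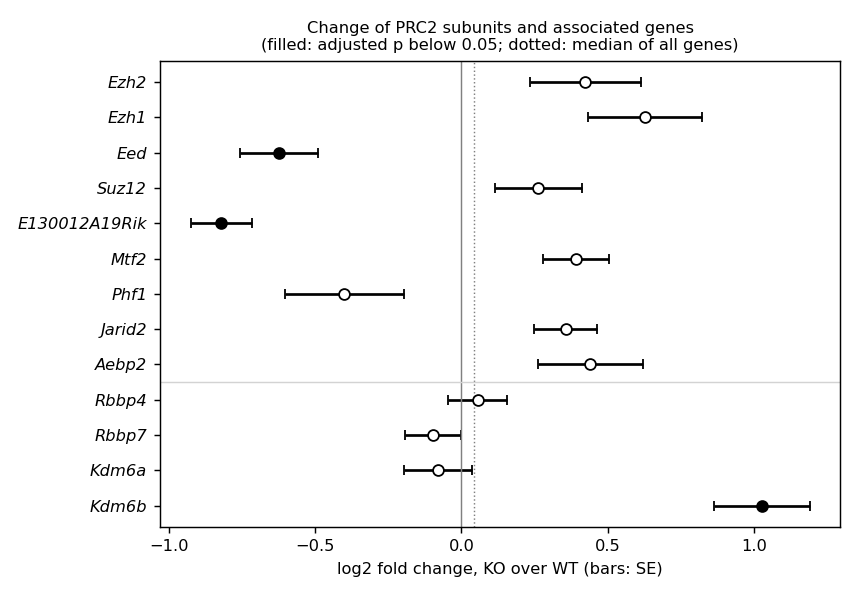
Log2 fold change of KO over WT with its SE for the 9 PRC2 subunits (above the grey line) and 4 associated genes (below it); filled points have a limma adjusted p below 0.05 and the dotted line is the median of all genes, 0.04. Eed (-0.62) and E130012A19Rik (-0.82) are the filled points among the subunits, and Kdm6b (1.03) is the filled point among the associated genes.

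Among the PRC2.1 subunits, Epop fell. Epop links PRC2 to elongin BC and is abundant in ES cells. Epop (E130012A19Rik, ENSMUSG00000043439, chr11:97627389-97629702, minus strand) had 1842, 1855, 2068 and 1940 units in KO lines 1 to 4, against 3122 and 3720 units in WT replicates 1 and 2. The KO lines were tightly grouped and lay below both WT libraries. The mean was 1926 ± 104 units in KO (SD, n = 4) and 3421 ± 423 units in WT (SD, n = 2), a ratio of 0.563. The log2 fold change was -0.82 (SE 0.105, limma adjusted p = 0.00661), and with each library left out in turn it lay between -0.95 and -0.69 and passed every time (limma adjusted p up to 0.0326). The size of this fold change was at percentile 86.1 among all genes.

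Mtf2, the Polycomb-like protein that brings PRC2 to unmethylated CpG islands, did not pass. Mtf2 (ENSMUSG00000029267, chr5:108065674-108109004, plus strand) had 7719, 6848, 6715 and 8478 units in KO lines 1 to 4, against 5790 and 5487 units in WT replicates 1 and 2. All KO lines lay above both WT libraries. Its log2 fold change was 0.39 (SE 0.113, limma adjusted p = 0.0545), and leaving out each of the 6 libraries in turn gave no call (limma adjusted p from 0.0693 to 0.152).

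Phf1, another Polycomb-like protein, was the lowest member in the table. Phf1 (ENSMUSG00000024193, chr17:26933052-26937908, plus strand) had 114, 122, 120 and 157 units in KO lines 1 to 4, against 196 and 152 units in WT replicates 1 and 2. KO line 4 lay above WT replicate 2, so the groups overlapped. Its log2 fold change was -0.40 (SE 0.204, limma adjusted p = 0.204). Of its 3486 exon bases, 1370 overlap Cuta on the opposite strand, so its level is uncertain.

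Neither PRC2.2 subunit passed. Jarid2, a relative of histone demethylases without their activity that helps PRC2 reach chromatin, (ENSMUSG00000038518, chr13:44729474-44921643, plus strand) had 6202, 6320, 6048 and 5070 units in KO lines 1 to 4, against 4632 and 4564 units in WT replicates 1 and 2. All KO lines lay above both WT libraries, KO line 4 by the least. Its log2 fold change was 0.36 (SE 0.108, limma adjusted p = 0.0619). Without KO line 4 it was 0.43 and passed (limma adjusted p = 0.0239).

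Aebp2, a zinc finger protein that stabilizes PRC2 on nucleosomes, (ENSMUSG00000030232, chr6:140622663-140678472, plus strand) had 3122, 2526, 2636 and 2105 units in KO lines 1 to 4, against 2190 and 1634 units in WT replicates 1 and 2. KO line 4 lay below WT replicate 1. On the log2 scale the difference was 0.44 (SE 0.18, limma adjusted p = 0.128), from 0.23 without WT replicate 2 to 0.65 without WT replicate 1, and it passed in no fit with a library left out.

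Ezh2 and Aebp2, the members on chromosome 6, differed from each other in the line where that chromosome stood high. Over 518 genes, the median log2 deviation of chromosome 6 from all genes was 0.41 in KO line 4, and between -0.09 and -0.05 in the other 3 KO lines and -0.06 and -0.11 in WT replicates 1 and 2. Each gene was centred on its own mean over the 6 libraries. Ezh2 deviated by 0.48 in KO line 4, close to its chromosome, and the part of the chromosome in its level there was not tested. Aebp2 deviated by -0.14 there, below its chromosome by 0.55. After the chromosome medians were subtracted in each library, the log2 fold change was 0.29 for Ezh2 (limma adjusted p = 0.188) and 0.31 for Aebp2 (limma adjusted p = 0.441). In that fit Eed and Epop remained lower, and Ezh1 (0.67, limma adjusted p = 0.0428), Jarid2 (0.39, adjusted p = 0.0395) and Mtf2 (0.40, adjusted p = 0.048) passed as higher. None of these 3 lies on chromosome 6. Over all genes, 1343 were called higher in that fit, against 1071 with no subtraction.

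**Figure D3:**
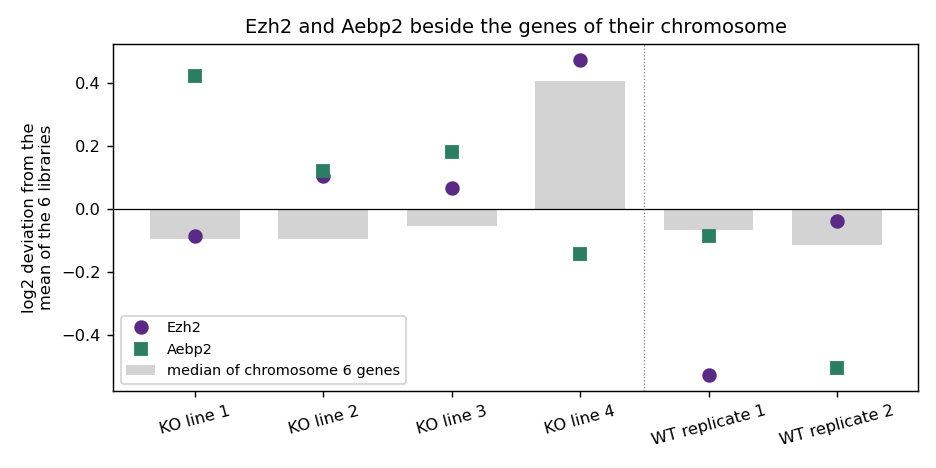
Log2 deviation of Ezh2 (circles) and Aebp2 (squares) from their own means in 4 KO lines and 2 WT replicates, beside the median deviation of 518 chromosome 6 genes (bars). In KO line 4 the bar stands at 0.41, Ezh2 at 0.48 and Aebp2 at -0.14.

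Eed and Epop stayed called when the pseudocount, the filter, the scaling (quantile or trimmed-mean) or the mean-variance trend was changed one at a time. No further member was called in these fits. Weighting the libraries by limma's arrayWeights left 1 member, Epop (adjusted p = 0.0397), and Eed was at 0.0934.

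**Figure D4:**
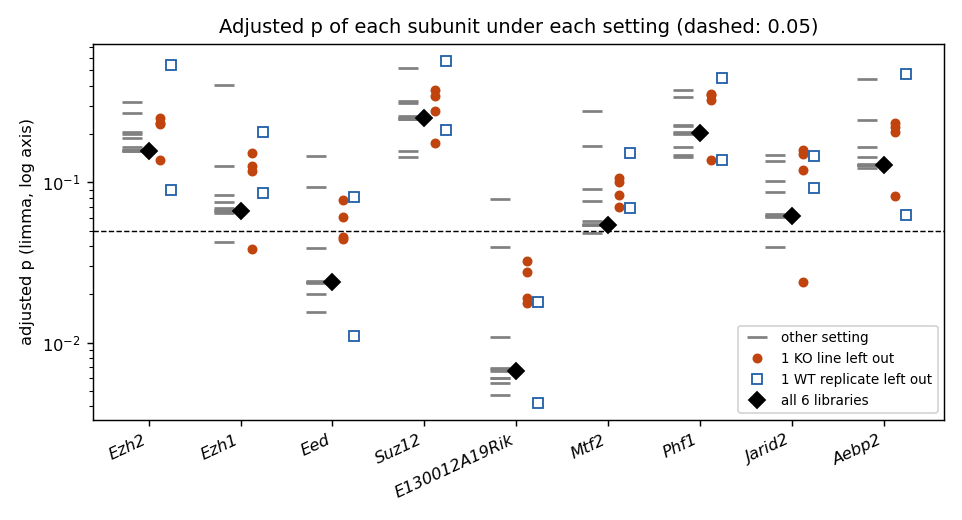
Limma adjusted p of each subunit on a log axis, with all 6 libraries (diamonds), with 1 KO line left out (filled circles), with 1 WT replicate left out (open squares) and under the other settings (dashes). E130012A19Rik (Epop) lies below 0.05 under all settings but 1 dash at 0.0788, the fit with the replicate number as a block, and Eed lies on both sides of the line.

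The balance between subunits within a library was described by ratios of levels, chosen after the values were seen and given with no test. Epop over Mtf2, both in PRC2.1, was 0.239, 0.271, 0.308 and 0.229 in KO lines 1 to 4, against 0.539 and 0.678 in WT replicates 1 and 2. Epop over Jarid2 was 0.297, 0.294, 0.342 and 0.383 in KO lines 1 to 4, against 0.674 and 0.815 in WT replicates 1 and 2. In both ratios every KO line lay below both WT libraries. This follows from the levels already given, with Epop lower and Mtf2 and Jarid2 higher in every KO line.

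Within the core, Eed over Suz12 was 0.230, 0.267, 0.321 and 0.277 in KO lines 1 to 4, against 0.418 and 0.608 in WT replicates 1 and 2. Eed over Ezh2 was 0.569, 0.470, 0.527 and 0.327 in KO lines 1 to 4, against 1.01 and 0.918 in WT replicates 1 and 2. Ezh1 over Ezh2 was 0.215, 0.175, 0.129 and 0.154 in KO lines 1 to 4, against 0.179 and 0.112 in WT replicates 1 and 2, with overlapping groups. The ratios with Eed or Epop on top did not overlap between the groups, while the ratio of the methyltransferases did. Eed and Epop are the members called lower, so these ratios are not separate evidence. Aebp2 over Jarid2, the PRC2.2 pair, also overlapped, at 0.400 to 0.503 in KO and 0.358 to 0.473 in WT.

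**Figure D5:**
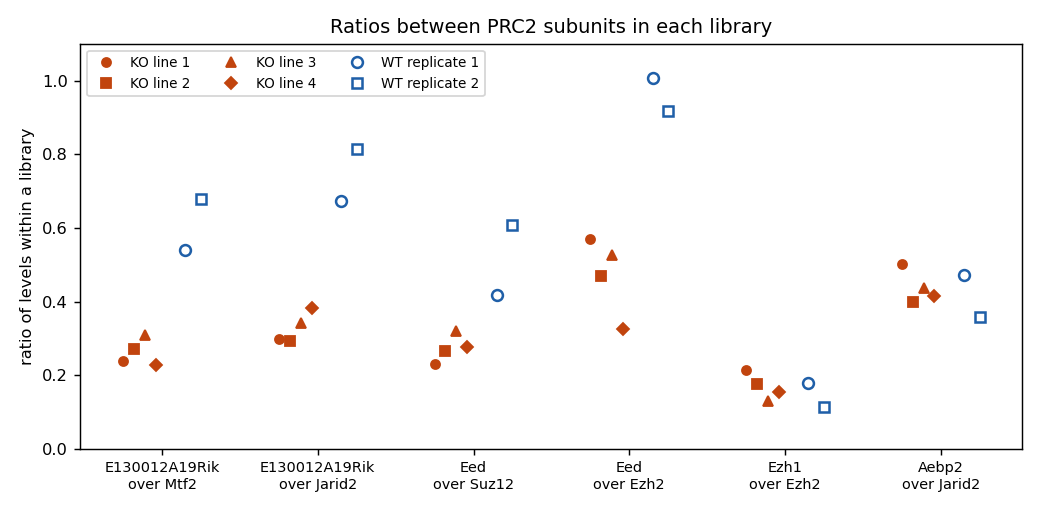
Ratio of the levels of 2 subunits within each library, for 4 KO lines (filled) and 2 WT replicates (open), on a linear axis from 0. The 4 ratios with E130012A19Rik (Epop) or Eed on top lie lower in every KO line than in both WT libraries, and the other 2 ratios overlap.

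To set subunits beside each other, levels were divided by the length of the longest protein-coding transcript in the GENCODE M21 basic set. In deposited units per kilobase, the KO order was Mtf2 (mean level 1833), Suz12 (mean level 1478), Ezh2 (mean level 1362), Jarid2 (mean level 985), Eed (mean level 844), Epop (mean level 832), Aebp2 (mean level 438), Ezh1 (mean level 149.7) and Phf1 (mean level 50.8). In WT the order was Epop (mean level 1478), Mtf2 (mean level 1389), Eed (mean level 1311), Suz12 (mean level 1223), Ezh2 (mean level 1018), Jarid2 (mean level 767), Aebp2 (mean level 322), Ezh1 (mean level 94.4) and Phf1 (mean level 68.9). In KO, the ranges over libraries overlapped between Mtf2 and Suz12, Suz12 and Ezh2, Jarid2 and Eed, and Eed and Epop. In WT they overlapped between each neighbour from Epop to Ezh2. Epop was thus sixth in KO and first in WT on this scale. With the mean transcript length instead, Mtf2 was first and Epop second in WT, and Epop was again sixth in KO. Which transcripts were used was not measured, and whether the deposited score is already adjusted for length is not stated, so the order is approximate.

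The members differed in how they varied among themselves. Measured as the root mean square difference of centred log2 levels over the 6 libraries, Eed and Epop were alike (0.134), and so were Aebp2 and Suz12 (0.133) and Jarid2 and Suz12 (0.137). Among all other genes, those nearest to Epop by the same measure were Derl1 (0.0396), an endoplasmic reticulum protein for the removal of misfolded proteins, Trim16 (0.0571) and Bcl7b (0.0648), a SWI/SNF subunit, while the median gene lay at 0.472. Those nearest to Ezh2 were Paip2b (0.0279), Gas2l3 (0.0537) and Tm7sf3 (0.0598), with the median gene at 0.377. Paip2b and Tm7sf3 lie on chromosome 6, as Ezh2 does, and Gas2l3 lies on chromosome 10. Paip2b had 1743, 1946, 1921 and 2424 units in KO lines 1 to 4, against 1250 and 1743 units in WT replicates 1 and 2, the same order of libraries as Ezh2 apart from a tie. The likeness rests on 6 libraries.

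Among the other PRC2 partners and the demethylases of its mark, only Kdm6b, a demethylase, passed the test. Of 9 measured partners and histone H3 lysine 27 demethylases, 1 rose, 0 fell and 8 did not pass, a share of 11.1% called beside 17.1% of all genes, with a median log2 fold change of 0.01. Rbbp4, a histone-binding core subunit shared with other complexes, had 9110, 8475, 8878 and 7357 units in KO lines 1 to 4, against 8110 units in both WT libraries (log2 0.06, limma adjusted p = 0.727). Rbbp7, its paralog, had 5648, 5549, 6288 and 6550 units in KO lines 1 to 4, against 6288 and 6550 units in WT replicates 1 and 2 (log2 -0.10, limma adjusted p = 0.494). Equal values recur between libraries in this table, whose values lie on shared steps.

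The demethylases that remove the mark of PRC2 differed from each other. Kdm6b, also known as Jmjd3, rose, with 2274, 2140, 2036 and 2024 units in KO lines 1 to 4, against 1270 and 838 units in WT replicates 1 and 2. The groups did not overlap, the mean ratio was 2.01 and the log2 fold change was 1.03 (SE 0.164, limma adjusted p = 0.0112). It passed with each library left out in turn (log2 0.73 to 1.32). Kdm6a, also known as Utx, had 1525, 1356, 1352 and 1213 units in KO lines 1 to 4, against 1516 and 1360 units in WT replicates 1 and 2, with overlapping groups (log2 -0.08, limma adjusted p = 0.651). Elongin B and C, listed as Tceb2 and Tceb1 and bound by Epop, had log2 fold changes of 0.01 each (limma adjusted p = 0.949 for Tceb2 and 0.971 for Tceb1).

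Of 30 measured subunits of PRC1, the complex that binds the mark of PRC2 and ubiquitinates histone H2A, 5 rose, 0 fell and 25 did not pass, a share of 16.7% called beside 17.1% of all genes, with a median log2 fold change of -0.01. In the higher direction the background was 9.75%. Cbx2, a chromodomain reader of the mark, had 910, 915, 844 and 899 units in KO lines 1 to 4, against 422 and 357 units in WT replicates 1 and 2 (log2 1.17, limma adjusted p = 0.00326). All KO lines lay far above both WT libraries. Bcorl1, a variant PRC1 subunit, had 336, 466, 432 and 432 units in KO lines 1 to 4, against 166 and 190 units in WT replicates 1 and 2 (log2 1.15, limma adjusted p = 0.0079). Scmh1 (log2 0.64), Scml2 (log2 0.48) and Pcgf3 (log2 0.47, limma adjusted p = 0.0343) rose too. With a library left out, the calls of Scmh1, Scml2 and Pcgf3 each held in 1 of 6 fits, the one without WT replicate 1, while those of Cbx2 and Bcorl1 held in all 6. With KO line 1, 2 or 3 left out, 2 PRC1 subunits were higher, beside 685, 237 and 306 of all genes. Leaving out KO line 4 gave 3, beside 827 of all genes. Rybp, which recruits variant PRC1, did not pass (log2 0.49, limma adjusted p = 0.0974). It lies on chromosome 6, and it passed as higher without KO line 4 (log2 0.35, limma adjusted p = 0.0464) and with chromosome medians subtracted (log2 0.36, adjusted p = 0.0217).

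Of 50 developmental genes listed as known PRC2 targets, 9 were measured and the others were not analysed here. Of those 9, 1 rose (Otx2), 1 fell (Bmp4) and 7 did not pass, a share of 22.2% called beside 17.1% of all genes, with a median log2 fold change of -0.20. Otx2, a homeobox gene of the exit from the naive state, had 788, 618, 437 and 626 units in KO lines 1 to 4, against 156 and 204 units in WT replicates 1 and 2 (log2 1.68, limma adjusted p = 0.00767). Bmp4, a signalling ligand, had 21, 24, 43 and 104 units in KO lines 1 to 4, against 310 and 537 units in WT replicates 1 and 2 (log2 -2.93, limma adjusted p = 0.0148). Its call was lost without WT replicate 2 (adjusted p = 0.0666).

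E2F transcription factors are known to drive Ezh2 and Eed in cycling cells. Of the 9 listed E2F, retinoblastoma and Myc family genes, all measured, 2 rose, 1 fell and 6 did not pass, a share of 33.3% called beside 17.1% of all genes, with a median log2 fold change of 0.07. E2f1 had 1476, 1259, 1185 and 1202 units in KO lines 1 to 4, against 904 and 838 units in WT replicates 1 and 2 (log2 0.54, limma adjusted p = 0.0258). Rb1, the retinoblastoma gene that restrains E2F, had 579, 477, 552 and 382 units in KO lines 1 to 4, against 320 and 220 units in WT replicates 1 and 2 (log2 0.85, limma adjusted p = 0.0386). Myc had 82, 72, 172 and 98 units in KO lines 1 to 4, against 240 and 676 units in WT replicates 1 and 2 (log2 -1.86, limma adjusted p = 0.0357). KO and WT values of the 3 genes did not overlap. With a library left out these calls were often lost: E2f1 in 3, Rb1 in 4 and Myc in 5 of 6. The value for Myc moved with single WT libraries, to -1.14 without WT replicate 2 and -2.58 without WT replicate 1.

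Feeder markers moved with the comparison. Of 22 fibroblast markers, 20 were lower in the KO lines and 2 did not pass, with a median log2 fold change of -3.04. That is 90.9% of these markers, beside 7.34% of all genes in the lower direction. Their summed level was 43462 to 47603 units in KO, against 106276 and 68675 units in WT replicates 1 and 2, and 1 of them was at 0, in KO line 4. Fn1, which did not pass, had 36452 units in every KO line, against 36452 and 29855 units in WT replicates 1 and 2. Without Fn1, a choice made after its values were seen, the sums were 7010 to 11151 units in KO, against 69824 and 38820 units in WT replicates 1 and 2. Those with the largest changes were the matrix genes Col6a1 (log2 -5.06), Fbln2 (log2 -4.60), Col6a2 (log2 -4.57) and Col1a2 (log2 -4.30). The cells that gave the marker RNA were not identified. Fewer fibroblasts, less RNA per fibroblast and a change in other cells cannot be told apart in bulk samples. In the WT pair, Eed, Epop and Ezh2 were lower in replicate 1, the library with the higher fibroblast sum. The other measured members were higher in that library. The part of feeder cells in the levels of the PRC2 members was not tested. For other cell types, 5 of 9 listed trophoblast, 4 of 10 primitive endoderm, 4 of 8 neural and 1 of 7 mesoderm markers were measured. In trophoblast, 2 were higher, 40% beside 9.75% of all genes. These were Ascl2 and Tfap2c, whose calls held in 1 and 4 of 6 fits with a library left out. Krt18 (log2 0.25), Eomes (log2 -0.45) and Krt8 (log2 -0.67) did not pass. In primitive endoderm, 1 was lower, 25% beside 7.34% of all genes. It was Sparc, which fibroblasts also express, and its call held in 4 of 6 such fits. No neural or mesoderm marker passed by limma. Ascl2 had 134, 102, 74 and 136 units in KO lines 1 to 4, against 35 and 1 units in WT replicates 1 and 2, and its log2 fold change was 1.31 without WT replicate 2 and 2.97 without WT replicate 1. Of the 16 ES cell markers, 3 were called and 13 did not pass, with a median log2 fold change of -0.01. That is 18.75% called, beside 17.1% of all genes. Nanog rose (log2 0.89, held in 4 of 6 such fits) and Klf4 (log2 -0.94) and Lin28a (log2 -1.62) fell.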

How the data were processed

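RNA of 6 libraries had been sequenced. RSEM 1.2.17, Bowtie2 2.2.0 and the build mm10 are listed per the submitters' processing notes. Not given in the sources used here were the annotation, the normalization and what each tool did. In the table the authors deposited 1 value per gene and library, named CPM. The values are whole numbers that sum to 14612799 to 14722877 per library with shared steps, so the deposited values were handled as a score, normalized in a way not stated. Depth is unknown and reads were not recovered, so no counting interval is given.

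Scores were divided by 14.7 units, 1 was added and log2 taken, which understates changes of low genes. The filter, a scaled score of 1 or more in 2 or more libraries, removed 0 genes. KO and WT were compared by limma 3.58.1 (R 4.3.3) with a mean-variance trend, two-sided, over all 10989 genes, with Benjamini-Hochberg adjustment and 4 residual degrees of freedom. The script was tested on simulated data. The smallest p of an exact permutation test with 4 and 2 libraries is 0.0667. Ratios of means carry no pseudocount. GENCODE M21 (mm10) gave positions for 10941 genes, and promoters came from RefSeq (GRCm38.p6). Exons of Ezh2, Suz12 and Mtf2 overlap genes on the opposite strand over 174, 178 and 395 bases, and strand use in counting is not given. Motifs beyond the 3 given were looked for and are not shown.

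Members and lists were chosen with earlier results of these data known. All members and Ddx5 are named, plus, per accompanying list, up to 4 called genes with the largest change, and Rbbp4, Rbbp7, Kdm6a, Kdm6b and Rybp. For Ezh2 and the called member with the largest change, the 3 genes nearest in profile are named. Tceb1, Tceb2 and Pcgf3 were added after their values were seen. Alternatives were the pseudocount, the filter, quantile or trimmed-mean scaling, subtracted chromosome medians, no trend, arrayWeights, the replicate number as a block and each library left out. No label names a batch.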

Additional observations from a re-analysis of the deposited data

Results flagged for a closer look

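Of 34 genes examined (the members, Ddx5 and the genes picked from the lists), 1 had a KO line far from the other 3: Rybp in KO line 4, at 7682 units against 5335 units in the next highest KO line. The gap was 0.891 of the range of the 4 lines, above Dixon's 95% critical value. Chance flags about 1 in 20 groups. Rybp lies on chromosome 6, whose genes had a median log2 deviation of 0.41 in that line. Rybp passed as higher without KO line 4 (log2 0.35, limma adjusted p = 0.0464) and with chromosome medians subtracted (log2 0.36, adjusted p = 0.0217), and did not with all libraries (log2 0.49, adjusted p = 0.0974). No PRC2 member had a KO line that far from the others, and the WT pair is too small for the measure.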

How the results depend on the processing

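Of 144 refits of single members (16 alternatives for each of 9), 133 kept the direction and side of the threshold, 5 gained a call and 6 lost one, and none changed direction. With a library left out, the genes called numbered 472 to 3304 (237 to 2004 higher, 235 to 1300 lower), against 1878 over all libraries, and the members called 1 to 3 (0 to 1 higher, 1 to 2 lower). The lowest count came without KO line 2 (472, with 572 without KO line 3) and the highest without WT replicate 1. With 1 WT library left, its spread was assumed to be that of the KO lines. With arrayWeights 382 genes were called (206 higher, 176 lower) and 1 member, 1 lower. With chromosome medians subtracted 5 members were called, 3 of them higher. Calls over all genes also rose in that fit, to 2334 (1343 higher, 991 lower). The cause was not tested.

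The replicate number as a block gave 20 genes (2 higher, 18 lower) and 0 members (0 lower), with 1 residual degree of freedom; Epop was then at log2 -0.88 and Kdm6a at 0.0021, a change of sign. KO lines are clones, so a shared number is not a pairing; deviations of same-numbered libraries correlated at 0.145 and 0.097 across genes. Depth is unknown, so how far it limits low members such as Phf1 cannot be given.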
